A study of Mus musculus with 3 samples.

Results

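The genes described here build the kinetochore, guard its attachment to the spindle, or carry the checkpoint that delays anaphase. They were chosen by name, though with earlier results of these data known. The rule took every gene that the scanner files call Cenp plus a letter. It added a fixed list of further genes of the kinetochore, the spindle assembly checkpoint and the chromosomal passenger complex. Genes under an older name in those files, such as Cenps, fell outside it. The rule found 40 genes among 30119 gene names on the array, read by 57 probes, and 39 of them could be tested beside 19665 genes in all. The missing member was Plk1, a mitotic kinase, whose only spot was marked as an outlier by the scanner software on array 2.

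RNA came from mouse embryoid bodies, aggregates in which embryonic stem cells differentiate, grown for 10 days in suspension without LIF. One group was wild type. The other, labelled Dido3deltaCT+HADidoNT, carried a Dido3 protein truncated at its C terminus and also overexpressed the N-terminal part shared by the Dido proteins, which holds the PHD domain. The effects of the truncation and of the overexpressed fragment cannot be told apart in this design, and how many cell clones were used is not given in the sources used here. There were 3 biological replicates of each genotype, and each of the 3 two-colour arrays paired 1 mutant RNA with 1 wild-type RNA. The mutant was labelled with Cy3 on arrays 1 and 3 and with Cy5 on array 2. Dye orientation and replicate 2 therefore cannot be told apart. Every ratio below is log2 mutant over wild type, so -1 is a level 2-fold lower in the mutant.

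The kinetochore assembles on centromeric chromatin that carries the histone H3 variant CENP-A. A set of inner proteins, the constitutive centromere-associated network, recruits the outer KNL1, MIS12 and NDC80 complexes, which bind microtubules. Where attachment is missing, signalling by the kinases TTK and BUB1 lets MAD and BUB proteins form an inhibitor that holds CDC20. This inhibitor keeps the anaphase-promoting complex inactive. The chromosomal passenger complex of Aurora B, INCENP, survivin and borealin releases faulty attachments. Many of these genes are transcribed late in the cell cycle, through promoter elements known as CCAAT boxes and cell cycle genes homology regions (CHR). Dido proteins have been linked to the mitotic checkpoint.

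Promoters are shown for 3 members because the CHR and the CCAAT box lie close together in them while the ratios of the genes differed. The 100 bases before each RefSeq transcript start (GRCm38.p6) are given 5′ to 3′ on the gene's strand, with matches to either element on either strand in capitals. Cdc20 lies at chr4:118437344-118437443 on the minus strand, Cenpn at chr8:116921640-116921739 on the plus strand and Cenpw at chr10:30200541-30200640 on the minus strand.
Cdc20: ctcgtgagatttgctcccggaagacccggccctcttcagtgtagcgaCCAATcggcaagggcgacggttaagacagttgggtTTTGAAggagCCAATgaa
Cenpn: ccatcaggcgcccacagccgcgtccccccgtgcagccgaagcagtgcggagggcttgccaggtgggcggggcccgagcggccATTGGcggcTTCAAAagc
Cenpw: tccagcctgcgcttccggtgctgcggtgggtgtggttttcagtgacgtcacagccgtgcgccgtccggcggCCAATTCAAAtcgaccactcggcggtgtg
In Cenpw the CCAAT and the TTCAAA share 1 base. The CHR was searched as TTTGAA or TTCGAA and the CCAAT box as CCAAT, on both strands of the 250 bases before the start. Of the 40 members, 36 had a promoter in the RefSeq table, and 8 of these (22.2%) held a CHR, against 19.6% of 27025 genes with a promoter. A CCAAT box was found in 20 of the 36 (55.6%), against 37.5% of all genes, and the 2 elements together in 7 (19.4%), against 7% of all genes. A gene with several listed starts was counted once if any of them held a match. The median ratio was -0.36 over the 8 members with a CHR and -0.04 over the 27 tested members without one; for the CCAAT box it was -0.27 over 19 members and -0.08 over 16. These are descriptions, and a match is not evidence that a factor binds there. Of the printed genes, all with both elements, Cdc20 had a mean ratio of 0.08, while Cenpn and Cenpw had -0.54 each.

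Members were more often lower than higher in the mutant, and none passed the adjusted test. That does not show that members were unchanged. In simulated data of 19665 genes, the adjusted test made no call on 100 genes changed by a log2 of 1 or 100 by 2. An unadjusted p of 0.05 in limma was passed by 76% and 91% of them. The real data had 325 called genes, so the simulated result does not give the power of the test here. At a Benjamini-Hochberg adjusted p of 0.05 in limma over all genes, 0 of 39 members were called, where 325 of 19665 genes (1.65%) were called, 249 of them higher in the mutant (1.27%) and 76 lower (0.386%). At an unadjusted p of 0.05, 0 members were higher, where 12.1% of all genes were, and 5 of 39 were lower (12.8%), where 7.78% of all genes were; 19.9% of all genes passed it in either direction. These 5 were Cenpb, Cenpv, Cenpf, Cenpm and Cenpw, all named for the centromere. Without regard to a test, 11 of 39 members (28.2%) were lower in the mutant on all 3 arrays, against 19.1% of all genes, and 3 (7.69%) were higher on all 3, against 22.5%. Of the 11 lower ones, 8 were inner kinetochore genes, so the tendency lay mainly in that group. No member differed at least 2-fold in one direction on every array, which 3.1% of all genes did upward and 1.08% downward.

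Member means ran from -1.29 to 0.59. The median over members was -0.08 and that over all genes -0.01. A mean at or below -0.5 was seen in 8 members (20.5%; 13.7% of all genes), and a mean at or above 0.5 in 1 member, Zwint (2.56%; 17.4% of all genes). The 3 arrays did not agree on the sign for most members. On array 2, 29 of 39 members were lower in the mutant and their median was -0.33. On array 1, 18 were lower, with a median of 0.04, and on array 3, 20 were lower, with a median of -0.0037.

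**Figure D1:**
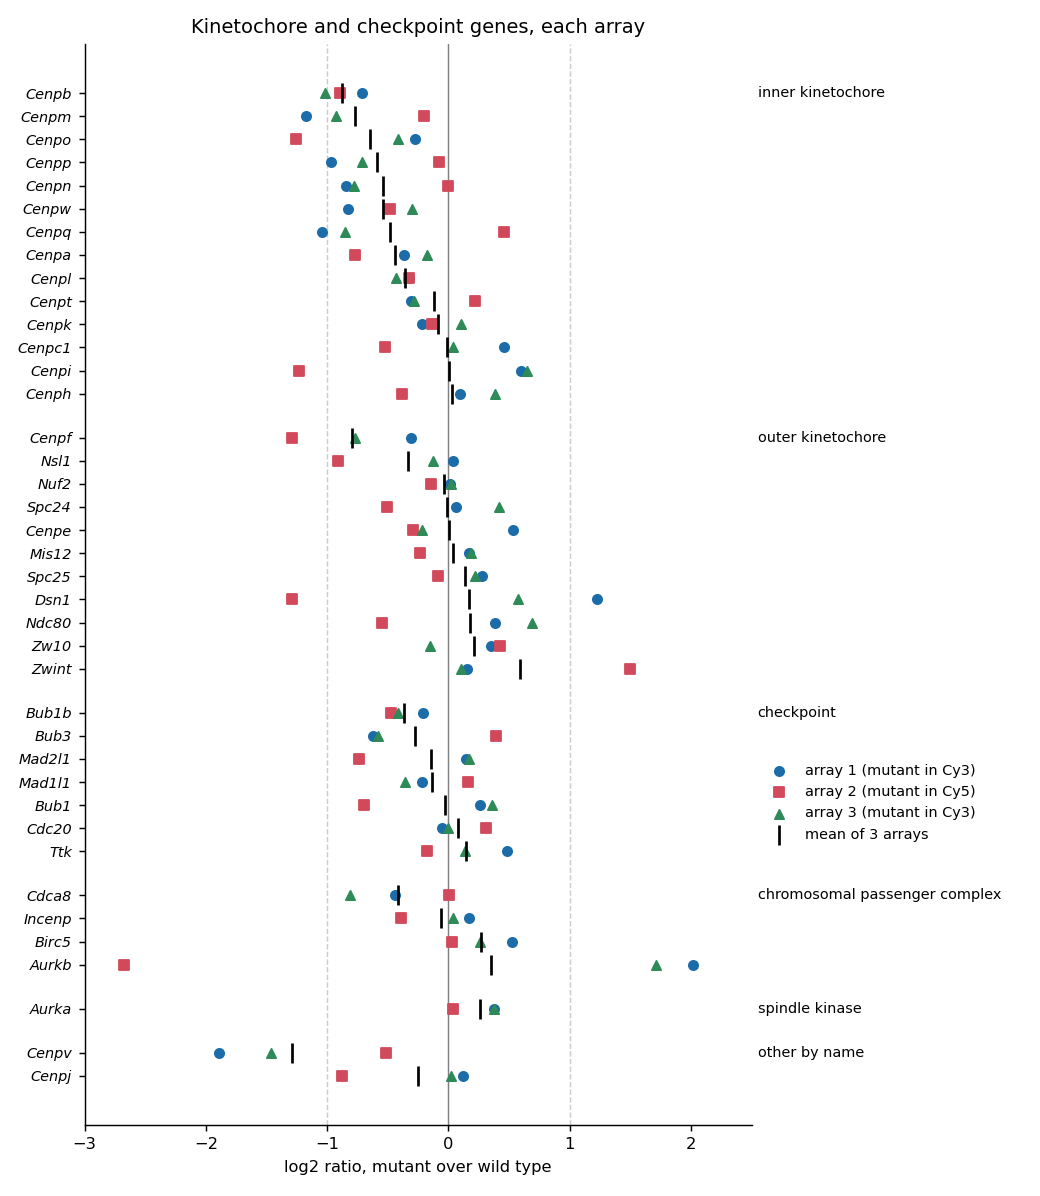
Log2 ratio, mutant over wild type, of each of the 39 tested genes on each array (x axis), with genes grouped by role down the y axis; coloured symbols are the 3 arrays, black bars their mean, and dashed lines mark 2-fold. Most inner kinetochore genes lie left of 0 on every array, the other groups straddle 0, and Aurkb spans from -2.68 to 2.02.

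The inner kinetochore genes were the group most often lower in the mutant. Of 14, 8 (57.1%) were lower on all 3 arrays, against 19.1% of all genes, and 0 were higher on all 3, against 22.5%. A mean below 0 was seen in 12 (85.7%), where 51.3% of all genes had one. The group's median of means was -0.46, and its median was -0.35, -0.36 and -0.36 on arrays 1, 2 and 3. None of the 14 passed the adjusted test. The roles were assigned after the ratios had been seen, so these counts describe the genes and are not a test of the group.

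Cenpb, whose protein binds the CENP-B box of centromeric satellite DNA, had the smallest adjusted p of all members. Its ratio was -0.71 on array 1, -0.89 on array 2 and -1.02 on array 3. All 3 arrays were low and close together, with a mean of -0.87 ± 0.15 (SD, n = 3) and a 95% interval of -1.37 to -0.38 from limma. The adjusted p was 0.0955. The probe lies on chr2:131003021-131003080 (mm9, minus strand). A further Cenpb probe, at chr2:131004187-131004246, was lower still on arrays 1 and 3, with -1.48, -0.86 and -1.42. A dimmer one at chr2:131000948-131001007 read 0.0021, -0.10 and -0.60, so its ratio was clearly below 0 on array 3 alone.

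Cenpa, the centromeric histone itself, read -0.37, -0.77 and -0.17, lower on every array but with an interval that included 0 (mean -0.44 ± 0.31, adjusted p 0.345). Cenpm, a subunit of the inner network, read -1.17, -0.20 and -0.93 (mean -0.77 ± 0.51, adjusted p 0.207). Cenpo, of the same network, read -0.27, -1.26 and -0.42 (mean -0.65 ± 0.53, adjusted p 0.278). The 2 genes thus had low means from different arrays: array 2 gave the smallest drop for Cenpm and the largest for Cenpo. Cenpw, a histone-fold subunit, read -0.83, -0.48 and -0.30 (mean -0.54 ± 0.27, adjusted p 0.25). Cenpl read -0.32, -0.33 and -0.43, the tightest set of values in the group, at a size of -0.36 ± 0.06 (adjusted p 0.359).

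Cenpp read -0.97, -0.08 and -0.71, and Cenpn -0.84, -0.0046 and -0.78. For these, as for Cenpm, the ratio lay well below 0 on arrays 1 and 3 and near 0 on array 2. Cenpq went further in the same way, with -1.05 and -0.85 on arrays 1 and 3 and 0.46 on array 2. The remaining inner genes had means between -0.12 and 0.03: Cenpt, Cenpk, Cenpc1, Cenpi and Cenph. Among them Cenpi had 0.60 and 0.65 on arrays 1 and 3 and -1.23 on array 2, so a mean of 0.01 hid values of opposite sign. Cy5 was the lower channel on every array for Cenpi and the higher one for Cenpq.

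The outer kinetochore genes, which make the microtubule-binding face, were centred near 0. Their median was 0.04 over 11 genes. On all arrays 1 gene was higher (9.09%), against 22.5% of all genes, and 1 was lower (9.09%), against 19.1%. Ndc80, the long microtubule-binding subunit, read 0.39, -0.54 and 0.69 (mean 0.18 ± 0.64, adjusted p 0.797). Its partners Nuf2, Spc24 and Spc25 had means of -0.04, -0.01 and 0.14. Mis12, which links the inner to the outer kinetochore, read 0.17, -0.23 and 0.19 (mean 0.04 ± 0.24, adjusted p 0.937). Dsn1, of the same complex, read 1.22, -1.29 and 0.58. In Ndc80, Mis12 and Dsn1 the mutant was higher on arrays 1 and 3 and lower on array 2, so the groups did not separate.

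Cenpf, a large kinetochore and nuclear matrix protein of G2 and mitosis, was the outer gene with the lowest mean. It read -0.31, -1.29 and -0.77 (mean -0.79 ± 0.49, adjusted p 0.194). Its only probe was the dimmest of those that stand for a member, with a log2 intensity of 7.56 to 7.87 in the mutant. The mean depended on the background handling, at -0.45 without the background limit and -1.09 with the scanner's log ratio. Zwint, which helps to place the ROD, ZW10 and Zwilch complex, had the highest mean of all members. It read 0.16, 1.50 and 0.11 (mean 0.59 ± 0.79, adjusted p 0.427). The size of that mean came from array 2, and the other Zwint probe read 0.22, -0.32 and 0.36, with array 2 on the opposite side of 0. Zw10, a subunit of that complex, read 0.35, 0.42 and -0.15 (mean 0.21 ± 0.31, adjusted p 0.657). Nsl1 and Cenpe had means of -0.33 and 0.01, and none of these 3 had 1 sign on all arrays.

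None of the checkpoint genes passed the test. Over 7 genes the median was -0.14, and all means lay between -0.37 and 0.15. Bub1b, which encodes the BUBR1 part of the checkpoint inhibitor, was the only one of them lower on every array, with -0.21, -0.48 and -0.42 (mean -0.37 ± 0.14, adjusted p 0.363). Its 95% interval ran from -0.86 to 0.12. Bub1, the kinase that recruits it, read 0.26, -0.70 and 0.36 (mean -0.03 ± 0.58, adjusted p 0.972). Bub3, the adaptor of BUB1 and BUBR1, read -0.62, 0.39 and -0.58 (mean -0.27 ± 0.57, adjusted p 0.655). Neither Bub1 nor Bub3 held 1 sign, but each kept 1 dye direction. Cy5 over Cy3 was -0.26, -0.70 and -0.36 for Bub1 and 0.62, 0.39 and 0.58 for Bub3. A dye effect and a different replicate 2 cannot be told apart here, so the mirror-image patterns do not show opposite changes in the mutant.

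Mad1l1, which brings MAD2 to the kinetochore, read -0.22, 0.16 and -0.36 (mean -0.14 ± 0.27, adjusted p 0.767). Mad2l1, the MAD2 subunit that binds CDC20, read 0.15, -0.74 and 0.17 (mean -0.14 ± 0.51, adjusted p 0.819). Ttk, the kinase that starts checkpoint signalling, read 0.48, -0.17 and 0.14 (mean 0.15 ± 0.33, adjusted p 0.765). Cdc20, the target of the checkpoint, read -0.06, 0.31 and -0.0037 (mean 0.08 ± 0.20, adjusted p 0.86). For 6 of the 7 checkpoint genes the 95% interval of the ratio lay inside a 2-fold difference in either direction, and for Bub3 it ran just past that bound on the lower side. The same held for 6 of 14 inner kinetochore genes, for 23 of 39 members (59%) and for 51.8% of all genes. Mad2l1 counts here by its brightest probe, and its dimmer probes, given below, had lower ratios.

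**Figure D2:**
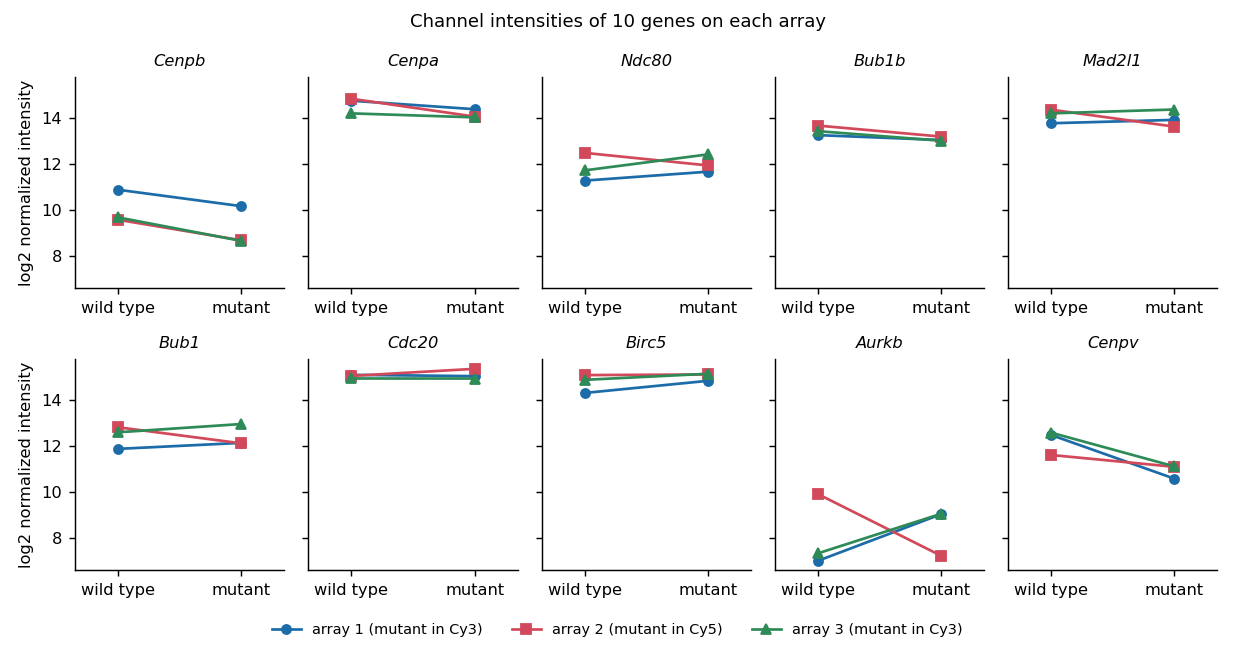
Log2 normalized intensity (y axis) of 10 of the genes in the wild-type and the mutant channel (x axis), with a line for each of the 3 arrays. Cenpb, Cenpa, Bub1b and Cenpv slope down on all 3 arrays, Ndc80, Bub1 and Mad2l1 slope up on arrays 1 and 3 and down on array 2, and the Aurkb lines cross most widely.

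In the chromosomal passenger complex, Aurkb, the Aurora B kinase, had the widest spread of all members. It read 2.02 on array 1, -2.68 on array 2 and 1.72 on array 3 (mean 0.35 ± 2.63, adjusted p 0.888). The Cy5 channel was the lower one on every array, with Cy5 over Cy3 at -2.02, -2.68 and -1.72. Its log2 intensity ran from 7.01 to 9.91 over the 6 channels, and its probe was well above background in each of them. It was the one member at least 2-fold apart in 1 dye direction on all 3 arrays, as 0.89% of all genes were. A dye effect and a different replicate 2 cannot be told apart here, and the direction of Aurkb in the mutant is not settled by this probe.

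Birc5, which encodes survivin, read 0.53, 0.03 and 0.26, higher on every array (mean 0.27 ± 0.25, adjusted p 0.526). Incenp, the scaffold of the complex, read 0.17, -0.39 and 0.04 (mean -0.06 ± 0.29, adjusted p 0.912). Cdca8, or borealin, read -0.44, 0.0031 and -0.81 (mean -0.41 ± 0.41, adjusted p 0.411). Birc5 was the only one of the 4 with 1 sign on all arrays. Aurka, the Aurora A kinase of spindle poles, was likewise higher on all 3, with 0.37, 0.04 and 0.37 (mean 0.26 ± 0.19, adjusted p 0.52). With the spots marked as outliers kept, Plk1 read -0.04, 0.08 and -0.37 (mean -0.11 ± 0.23, adjusted p 0.817).

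Cenpv and Cenpj were members by their Cenp name and were not placed in any of the roles above. Cenpv had the lowest mean of all members. It read -1.89, -0.51 and -1.46 (mean -1.29 ± 0.71, adjusted p 0.125), lower on each array and past 2-fold on arrays 1 and 3. Its interval was -2.12 to -0.46. Cenpj, a centriole protein, read 0.12, -0.88 and 0.02 (mean -0.25 ± 0.55, adjusted p 0.677).

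The spread between arrays was larger than that of repeated spots. The probes of Bub1, Cenpo and Cenpq were each printed 10 times, and their spots on an array had an SD of 0.03 to 0.15, whereas the SD between arrays was 0.53 to 0.82. The spread between arrays holds the biological replicates and the exchange of dyes as well. Of 13 members with several kept probes, 5 (Birc5, Cenpp, Incenp, Nsl1 and Nuf2) had probes whose means differed in sign. For Birc5 the other probes had means of -0.11 and 0.15, and for Cenpp the dimmer probe read 0.22, 0.19 and 0.40, higher on all arrays. That Cenpp probe had a mean log2 intensity of only 6.73, against 11.35 for the probe that stands for the gene.

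Mad2l1 was the only checkpoint gene with more than 1 kept probe, and its probes differed. Its brightest probe, at chr6:66490836-66490895 (mm9), had the mean of -0.14 given above. The probes at chr6:66490355-66490414 and chr6:66490067-66490126 were lower on all 3 arrays, with -1.02, -0.24 and -0.76 for the former and -1.02, -0.06 and -0.93 for the latter. Tested singly, their adjusted p-values in limma were 0.199 and 0.248, where 664 of 25494 kept probes (2.6%) were called. Nuf2, of the NDC80 complex, read 0.01, -0.14 and 0.02 by its brightest probe, and its other probes had means of -0.39 and 0.16. The probe with the mean of 0.16 was dim, with a mean log2 intensity of 6.57. In the wild type it was well above background on 2 arrays only. Nsl1, of the MIS12 complex, read 0.04, -0.91 and -0.12 by its brightest probe, and the other had a mean of 0.01.

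The 2 Incenp probes overlap, and their unshared bases are shown because their ratios differed in size. They lie at chr19:9946893-9946952 and chr19:9946878-9946937 (mm9) and share 45 of 60 bases.
Incenp probe with ratios 0.17, -0.39 and 0.04: aggttgagcactgat
Incenp probe with ratios 0.80, -0.98 and 0.59: agttgaatgactttt
The latter probe differed more between array 2 and the other arrays than the former, from the same transcript. Neither showed 1 sign on all arrays.

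**Figure D3:**
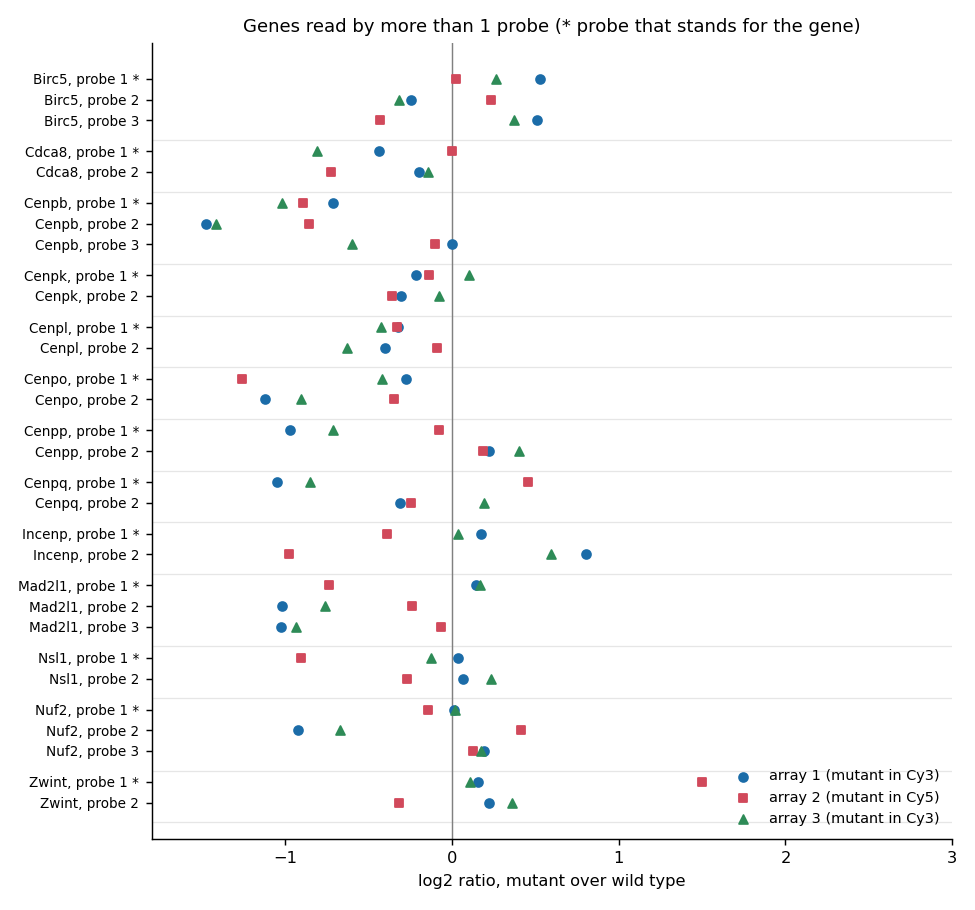
Log2 ratio, mutant over wild type (x axis), of every kept probe of the 13 genes read by several probes; symbols are the 3 arrays and an asterisk marks the probe that stands for the gene. The 2 brighter Cenpb probes lie left of 0 on all arrays, and the Mad2l1 probes split on arrays 1 and 3 between values of 0.15 to 0.17 and of -1.02 to -0.76.

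Other members also had 1 channel lower on every array. Cy5 was the lower channel on all 3 arrays in 15 of 39 members (38.5%), where 19.1% of all genes were, and the higher one in 6 (15.4%), where 19.3% were. In the outer kinetochore it was the lower one in 6 of 11. A fit with a dye term, in which array 2 is the only array of its orientation and is fitted exactly, called 5 members: Cenpb (-0.88), Cenpo (-0.80), Cenpv (-1.10) and Cenpf (-0.92) lower and Zwint (0.82) higher. In that fit 12.9% of all genes were called, and 5 of 39 is 12.8%. Without array 2, 7 members were called, with Cenpb, Cenpm, Cenpn, Cenpp, Cenpq and Cenpv lower and Aurkb higher, where 25.8% of all genes were called. Without array 2 the mutant was in Cy3 throughout, and dye and genotype cannot be told apart. The dye-term fit and the fit without array 2 both take a gene's spread from arrays 1 and 3 alone, so they are not independent. Cenpv was the only member called when each channel was fitted separately, where 6.66% of all genes were called.

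**Figure D4:**
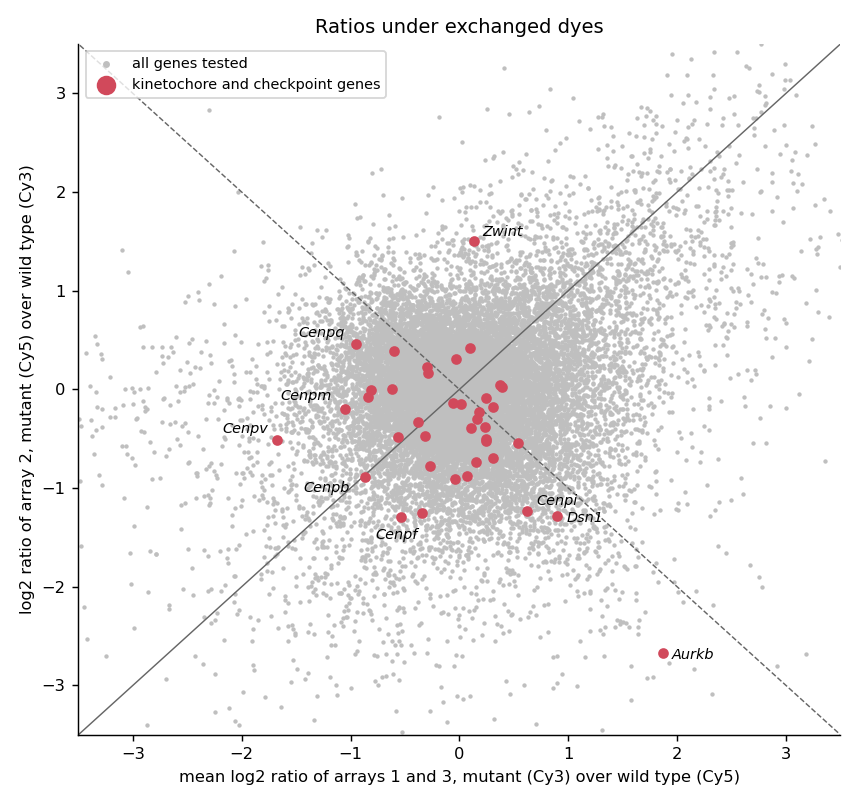
Mean log2 ratio of arrays 1 and 3, mutant in Cy3 (x axis), against that of array 2, mutant in Cy5 (y axis), for all genes tested (grey) and the members (red); the solid line marks equal ratios, the dashed one equal ratios of opposite sign, and genes beyond the axes are not drawn. Cenpb lies on the solid line, Aurkb, Dsn1 and Cenpi lie toward the dashed line, and most members lie near the centre.

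Other genes of mitosis were listed by function, and 0 of 105 tested passed the adjusted test, which 1.65% of all genes passed. The median of the 105 was -0.07. On all 3 arrays, 33 (31.4%) were lower, against 19.1% of all genes, and 6 (5.71%) were higher, against 22.5%. At an unadjusted p of 0.05 in limma, 3 were higher (2.86%; 12.1% of all genes) and 11 lower (10.5%; 7.78% of all genes). Of the further inner kinetochore and CENP-A loading genes, 5 of 7 (71.4%) were lower on all arrays, against 19.1% of all genes. Itgb3bp, or CENP-R, read -0.71, -0.74 and -0.65 (adjusted p 0.131), and Oip5, which takes part in CENP-A loading, read -0.43, -0.96 and -0.30 (adjusted p 0.259). Cenps, also of the inner network, read -0.34, -0.52 and -0.04 (adjusted p 0.48). Among the further outer genes, 6 of 18 (33.3%) were lower on all arrays, against 19.1% of all genes, and 0 were higher, against 22.5%. Knstrn had a mean of -0.70, Pmf1, a subunit of the MIS12 complex, of -0.73 and Ska3 of -0.48.

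Genes that end the checkpoint or guard cohesion split in direction. Haspin, a histone H3 kinase that places the passenger complex, was higher on all arrays with a mean of 0.78 (adjusted p 0.119). Mad2l1bp, which helps to take the checkpoint inhibitor apart, had a mean of 0.40 (adjusted p 0.34). Usp44, a deubiquitinase of CDC20, read -1.66, -1.18 and -0.24 (adjusted p 0.184). Of 21 genes of the anaphase-promoting complex and its targets, 8 (38.1%) were lower on all arrays, against 19.1% of all genes. On all arrays 2 (9.52%) were higher, against 22.5%. Among the lower ones were Espl1 (separase) at -0.67, Cdc26 at -0.78 and Ccnb2 (cyclin B2) at -0.59. The cohesin median was 0.02, with Wapl at 0.42, Esco1 at -0.23 and Stag1 at 0.19, and the condensin median was -0.11, with Ncapg2 at -0.60, Ncapg at -0.45 and Ncaph2 at 0.62.

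Cit, a kinase of cytokinesis, came closest to the threshold of all these genes. It read 1.78, 1.40 and 1.17, over 2-fold higher on every array (mean 1.45 ± 0.31, adjusted p 0.0533). Nusap1 and Hmmr, of the same list of spindle and cytokinesis genes, had means of -0.48 and -0.52. The S phase and proliferation markers had a median of -0.19. Of 15 means, 13 were below 0 (86.7%; 51.3% of all genes), and 4 genes were lower on all arrays (26.7%; 19.1% of all genes). Cy5 was the higher channel on all 3 arrays in 6 of the 15 (40%; 19.3% of all genes). Mki67 and Pcna had means of -0.15 and -0.13. Cdc6, a replication licensing factor, had a mean of -0.61, Foxm1, a transcription factor of mitotic genes, of -0.66 and Top2a of -0.50. Their medians by array were -0.41, -0.02 and -0.65. In whole embryoid bodies, fewer cycling cells and less RNA per cell cannot be told apart.

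**Figure D5:**
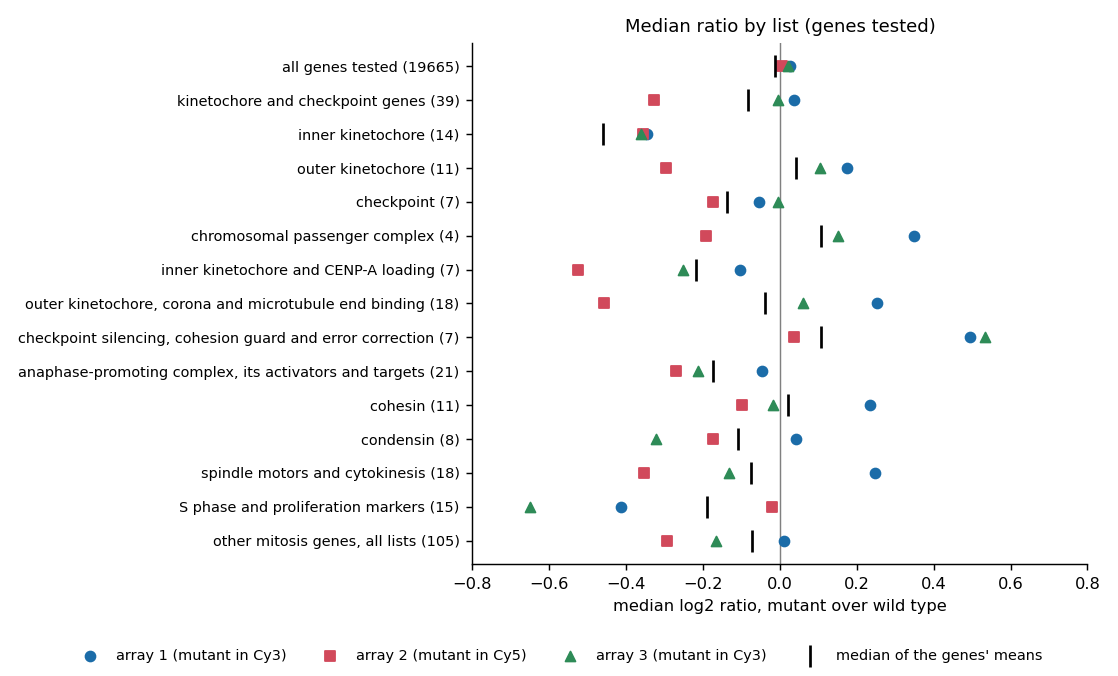
Median log2 ratio, mutant over wild type (x axis), of each list of genes (y axis, with the number tested) on each of the 3 arrays (symbols) and over the genes' means (bars). The inner kinetochore genes have nearly equal medians on all 3 arrays, while in the other lists drawn array 2 lies left of array 1, except in the S phase list, where it lies near 0.

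Markers of cell types differed between the genotypes far more than the kinetochore genes, and their part in the values above was not tested. All 7 visceral endoderm markers were higher in the mutant on all arrays, with a median of 2.36, and the summed intensity of the list was 334579 to 660400 in the mutant and 50549 to 143170 in the wild type. For cardiomyocytes, 5 of 6 were higher on all arrays (median 2.34; sums of 8891 to 59968 in the mutant and 3002 to 6618 in the wild type), and for mesenchyme 4 of 5 (median 2.36; sums of 67245 to 138582 and 12674 to 24068). Of 7 neural progenitor markers, 5 were lower on all arrays. Their medians were -3.08, -0.46 and -2.84, so array 2 stood apart. Sums of that list were 2772 to 3083 in the mutant and 3962 to 23050 in the wild type. The pluripotency markers had medians of -2.48, -2.00 and 0.90, with sums of 17461 to 196396 and 83088 to 224220.

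Dido1, the altered gene, was read to see whether the labels turned the 3 arrays alike. Of its 4 probes, 1 had a mean of -3.60 and 2 had means of 2.35 and 3.03, each with 1 sign on all arrays, and the fourth had a mean of -0.54. Which part of the transcript each of them reads was not analysed here. The steady signs therefore show that the arrays were turned alike, but not in which direction. Median intensities of the arrays were 150 to 288 units over a background of 36 to 40, no spot was saturated, and 64.8% to 76.0% of spots were well above background in a channel. The local background exceeded 100 units at 25 spots, all of them on array 2.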

How the data were processed

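The 3 arrays (Agilent 4x44K v2, 2 colours) each held 1 mutant and 1 wild-type RNA, labelled per the labels. The deposited scanner files give spot intensities as mean signals and median local backgrounds per the file headers, and a log10 ratio of Cy5 over Cy3 made by the scanner software. A table of log2 ratios per spot was also deposited; per the submitters' processing notes limma was used, with no version named. Its centring stays unknown. On 9917 bright spots its values, regressed on scanner ratios turned as mutant over wild type, had slopes of 0.911 to 0.976, and the medians of its columns were -0.01 to 0.02.

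Ratios were recomputed in R 4.3.3 with limma 3.58.1: local background limited to 100 units, normexp with offset 50, and loess within arrays, to which control spots gave no weight. Controls and spots marked as outliers were then dropped, and repeated spots averaged by probe. The filter kept 25494 of 39429 probes: on each of the 3 arrays, the same genotype had to be well above background. A gene was represented by its brightest kept probe. Ratios were tested against 0, two-sided, with lmFit and eBayes and Benjamini-Hochberg adjustment over 19665 genes; 95% intervals use the moderated standard errors. Each array pairs its RNAs, so the pairing is part of the ratio. Channel levels and their sums come from loess and Aquantile scaling. Names were updated to RefSeq (GRCm38.p6) by accession for 27234 probes, by symbol for 3576 and by synonym for 565, and kept as in the files for 8054. Probe positions are the files' own (mm9). The fit was tested on simulated data, where it recovered the sizes of the changes but made no adjusted call among the changed genes.

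Values on all arrays are given for the members of extreme mean ratio, those of named roles and those whose probes differ in sign, and each other list's 3 genes of smallest p are named, some by their mean alone. The genes, the lists and the background limit were chosen with earlier results of these data known. With 3 arrays the precision is limited by their number.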

Additional observations from a re-analysis of the deposited data

How the results depend on the processing

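Members called numbered 0 in every alternative tried except the dye term (5), the separate-channel fit with the array as a replicate block (1) and the fit without replicate 2 (7). Leaving out 1 array gave 0 to 7 of 39 members, 0 to 20 of 105 other mitosis genes and 0 to 5082 of 19665 genes called. The highest count in each case came without array 2, where 25.8% of all genes were called. The members' median stayed below 0 in all other alternatives, from -0.24 without replicate 1 to -0.07 with median centring in place of loess, and was 0.015 without replicate 2, where the median of all genes was 0.019. For all genes, 0 were called by limma without the background limit (3021 at an unadjusted p of 0.05), 0 with no filter on dim probes (4857) and 0 with the authors' deposited values (3838). The count was 733 with an offset of 16, 769 with the scanner's log ratio, 605 with an intensity trend, 1310 in the separate-channel fit and 2534 with the dye term. The causes were not tested. The settings with outlier spots kept and with each probe tested singly were chosen after seeing the data. With the dye term, array 2 alone carries the other orientation and is fitted exactly.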
